A study of Mus musculus with 12 samples.

Results

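A set of 10 genes that mark fibroblasts and progenitor cells of the arterial adventitia was followed in the aorta of elastin-haploinsufficient mice during and after minoxidil treatment. They are Cd248, Cd34, Clec3b, Dpep1, Ebf2, Gsn, Ly6a, Pi16, Scara5 and Serpinf1. They were taken by symbol, and each matched 1 of the 50600 annotated genes. The set was chosen with earlier results of these data known. Its counts and medians, set beside those of all genes, describe these libraries and are no test of the set. RNA was sequenced from the stretch of aorta that begins at the left subclavian artery and ends at the diaphragm. Every mouse was C57BL/6J, had 1 functional elastin allele (Eln+/-), and carried the labelled age of 3 months. Off-drug mice had drunk minoxidil, a potassium channel opener that relaxes vessels, for 2 weeks and then plain water for 1 week. On-drug mice had the same 2 weeks of drug, begun at 2.5 months, and their aortas were taken at its end. Control mice drank regular water. Each group had 4 libraries, and because controls were also Eln+/-, nothing here compares with mice of 2 intact elastin alleles. By this schedule off-drug mice were about 1 week older than the other mice, although all carry the same labelled age. Tissues were kept frozen and RNA was extracted from all of them together. The labels do not give the sex of the mice, the hour of collection or how closely the surrounding fat was removed.

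The adventitia is the outer coat of an artery, a layer of loose matrix populated by fibroblasts. In mice, a subset of these cells carries the surface proteins Sca-1 (the product of Ly6a) and CD34 together with the secreted proteins PI16 and CLEC3B, and is regarded as a reservoir from which other fibroblasts, and in fat depots preadipocytes, arise. Cd34 and Ly6a are also transcribed by endothelial cells, and gelsolin is made by smooth muscle, so no single gene of the set reads the adventitia alone in RNA from a whole vessel wall. In such RNA, fewer cells of a type and less RNA per cell cannot be told apart.

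The libraries held between 41524501 and 109423243 assigned counts, and 24660 genes passed the expression filter, all 10 markers among them. The lowest count of any marker in any library was 614 (Ebf2) and the highest 265902 (Gsn), and counting error is therefore small. Levels are given as CPM, counts scaled to library size with trimmed-mean (TMM) factors, and differences as log2 fold changes ± SE from edgeR's quasi-likelihood test with Benjamini-Hochberg adjustment over all genes tested. A gene was called at an adjusted p below 0.05. Gene coordinates are those of GRCm38 in the deposited annotation. Transcripts of the other layers were present throughout. Smooth muscle markers (10 genes) summed to 19022 to 21599 CPM off drug, 19609 to 22385 CPM on drug and 17189.5 to 19717 CPM in controls. Of the libraries, off-drug replicate 4 stood apart for the markers: it had the lowest level of its group for 9 of the 10, Ebf2 being the exception. The 1 marker call that is lost without it, that of Dpep1 off drug against on drug, is named with its value.

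Promoter sequence is shown for 3 markers that moved between groups, as context for the transcripts that were counted. RefSeq start sites on GRCm38.p6 were at hand for 5 of the 10 markers, in 7 windows. Each sequence is the 250 bases upstream of a start, written 5′ to 3′ on the plus strand, and capitals mark the motif CCCNNGGG, the core recognised by EBF-family factors such as EBF2. The motif is its own reverse complement, so both strands were read together. The windows are Cd34 at chr1:194938571-194938820, Pi16 at chr17:29318632-29318881 and the third RefSeq start of Gsn at chr2:35282130-35282379.
Cd34: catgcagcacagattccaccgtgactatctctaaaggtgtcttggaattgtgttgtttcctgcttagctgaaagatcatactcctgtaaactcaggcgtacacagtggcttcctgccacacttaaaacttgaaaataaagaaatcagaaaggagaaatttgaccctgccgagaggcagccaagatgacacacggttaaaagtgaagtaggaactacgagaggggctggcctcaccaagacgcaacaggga
Pi16: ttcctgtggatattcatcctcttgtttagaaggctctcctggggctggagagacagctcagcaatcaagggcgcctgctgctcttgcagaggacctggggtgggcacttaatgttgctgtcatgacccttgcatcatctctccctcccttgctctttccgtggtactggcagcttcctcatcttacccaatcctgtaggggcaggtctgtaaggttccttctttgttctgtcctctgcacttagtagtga
Gsn: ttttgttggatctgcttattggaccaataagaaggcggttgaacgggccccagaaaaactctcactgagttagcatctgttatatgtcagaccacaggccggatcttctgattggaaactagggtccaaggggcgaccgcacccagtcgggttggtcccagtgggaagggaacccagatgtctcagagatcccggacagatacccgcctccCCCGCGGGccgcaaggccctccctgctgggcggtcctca
The Gsn window held 1 match, beginning 39 bases upstream of the start, and the other 6 windows, which belong to Cd34, Gsn, Dpep1, Serpinf1 and Pi16, held none. Among all 32851 RefSeq windows of this length, 11.8% had at least 1 match. A match is a description of these letters and not evidence of binding.

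Levels between genes were compared per kilobase of annotated exon. In controls, gelsolin was the most abundant marker, at 854 ± 57.1 CPM per kilobase (mean ± SD, n = 4). Gelsolin severs and caps actin filaments and is also secreted. Serpinf1, which encodes the secreted anti-angiogenic protein PEDF, followed at 150.3 ± 5.88 CPM per kilobase. Pi16, Ly6a and Dpep1 came next, at 70.8 ± 4.96, 68.5 ± 4.74 and 62.5 ± 5.34 CPM per kilobase, and neighbours among these 3 had overlapping control values. Below them stood Cd34 at 42.5 ± 3.92, then Scara5 and Clec3b at 25.2 ± 2.09 and 24.7 ± 2.28 CPM per kilobase, which overlapped each other. Cd248 (5.61 ± 0.553) and Ebf2 (1.73 ± 0.171) were lowest on the same scale. Ly6a took the fifth rank off drug (52.6 ± 5.70 CPM per kilobase), the third on drug (83.1 ± 6.20) and the fourth in controls, and the other 9 markers kept their order relative to each other in all 3 groups.

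The first comparison set 2 weeks of minoxidil against untreated aorta. Cd248, Ebf2 and Ly6a were higher on drug and Gsn was lower, and the other 6 markers did not pass. Of the 10 markers 3 were called up and 1 down, while 7.07% of all genes tested were called in this comparison (4.13% up and 2.94% down). That share includes genes of low count, whereas the markers are well expressed. Among genes of at least 1 CPM in 4 libraries, 2003 of 17255 were called, and the markers had 4 up and 1 down. The median of the 10 markers was 0.17 on the log2 scale, against 0.0049 over all genes. By library, 4 of the 10 lay wholly above and 1 wholly below the controls, where 6.3% and 6.01% of all genes did. The share of calls that were up among all genes depended on the scaling, at 58.4% with TMM factors and 72.8% without them, and the markers then had 4 up and 1 down.

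Cd248 (ENSMUSG00000056481.6, chromosome 19, 5068078 to 5070637, plus strand) encodes endosialin, a transmembrane glycoprotein of stromal cells and pericytes. It measured 17.1, 20.4, 19.6 and 15.7 CPM in off-drug aortas, 21.2, 22.1, 24.3 and 17.8 CPM in on-drug aortas and 16.1, 14.2, 14.5 and 12.6 CPM in control aortas. All 4 on-drug libraries lay above all 4 controls, and off-drug values overlapped both. The log2 fold change on drug was 0.57 ± 0.10 (adjusted p = 0.00352), a 1.48-fold level, and it was called in all 20 alternative settings.

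Ebf2 (ENSMUSG00000022053.13, chromosome 14, 67233292 to 67430918, plus strand) encodes a transcription factor that in mouse fat depots commits precursors to brown and beige adipocytes. Its libraries read 15.8, 19.99, 20.1 and 17.5 CPM in off-drug aortas, 17.95, 15.1, 20.9 and 16.2 CPM in on-drug aortas and 13.6, 11.96, 10.7 and 11.8 CPM in control aortas. Both treated groups lay wholly above the controls and overlapped each other. On drug the log2 fold change was 0.54 ± 0.11 (adjusted p = 0.00538). The exons of Ebf2 share 424 bases with the antisense gene Gm10860, and reads were counted without strand. All counts of Gm10860 came to 15.8% of those of Ebf2, and it was not called in this comparison (log2 fold change 0.47, adjusted p = 0.223).

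Ly6a (ENSMUSG00000075602.10, chromosome 15, 74994877 to 74998031, minus strand) encodes Sca-1, a lipid-anchored surface protein that defines the adventitial progenitor pool in mice. It had 64.4, 70.1, 65.1 and 53.8 CPM in off-drug aortas, 106, 93.7, 107 and 93.7 CPM in on-drug aortas and 85.4, 78.9, 88.98 and 76.6 CPM in control aortas. The 3 groups did not overlap in any pair, with the off-drug aortas lowest and the on-drug aortas highest. The on-drug increase of 0.28 ± 0.08 (adjusted p = 0.0358) lost its call without on-drug replicates 1 (0.0810), 2 (0.0531) or 3 (0.142), off-drug replicates 1 (0.0567) or 3 (0.0573), or control replicates 2 (0.106) or 4 (0.110), the values being adjusted p in edgeR. Ly6 genes form a family of close paralogs, and reads that map to several places were counted at each, so its level may include reads of its relatives.

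Gsn (ENSMUSG00000026879.14, chromosome 2, 35256380 to 35307892, plus strand) went the other way. It measured 2663, 2613, 2639 and 2533 CPM in off-drug aortas, 2183, 2084, 2258 and 2301 CPM in on-drug aortas and 2660.1, 2574, 2959.8 and 2587 CPM in control aortas. The on-drug libraries lay below all of the off-drug and control libraries, which overlapped each other. The log2 fold change on drug was -0.29 ± 0.06 (adjusted p = 0.00733), or 0.82 of the control level, and the call held in all 20 alternative settings. In the same comparison the smooth muscle list had 3 of 10 genes called up and 0 down, against 4.13% and 2.94% of all genes. Gelsolin is also a product of smooth muscle cells. What part those cells had in the fall of Gsn was not tested.

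Of the markers that did not pass on drug, Dpep1, a lipid-anchored dipeptidase, came nearest. It read 165, 164, 152 and 137 CPM in off-drug aortas, 172, 193, 172 and 200.1 CPM in on-drug aortas and 140.1, 170.4, 149.6 and 161 CPM in control aortas, so every on-drug library exceeded every control. The log2 fold change was 0.25 ± 0.08 with an adjusted p of 0.0562. It passed without on-drug replicate 1 (0.0442) and in DESeq2 (0.0418), without composition factors (0.0387), with the stricter filter (0.0487) and with no filter (0.0111). Pi16 had 0.18 ± 0.07 (adjusted p = 0.136) and passed without on-drug replicate 1 (0.0313), the lowest of its group. Serpinf1 had 0.16 ± 0.06 and Cd34 0.09 ± 0.07, with adjusted p of 0.138 and 0.473. Clec3b had -0.26 ± 0.10 (adjusted p = 0.136). Scara5, a ferritin-binding scavenger receptor, had -0.0074 ± 0.07 (adjusted p = 0.968). These 5 genes all had on-drug and control values that overlapped.

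**Figure D1:**
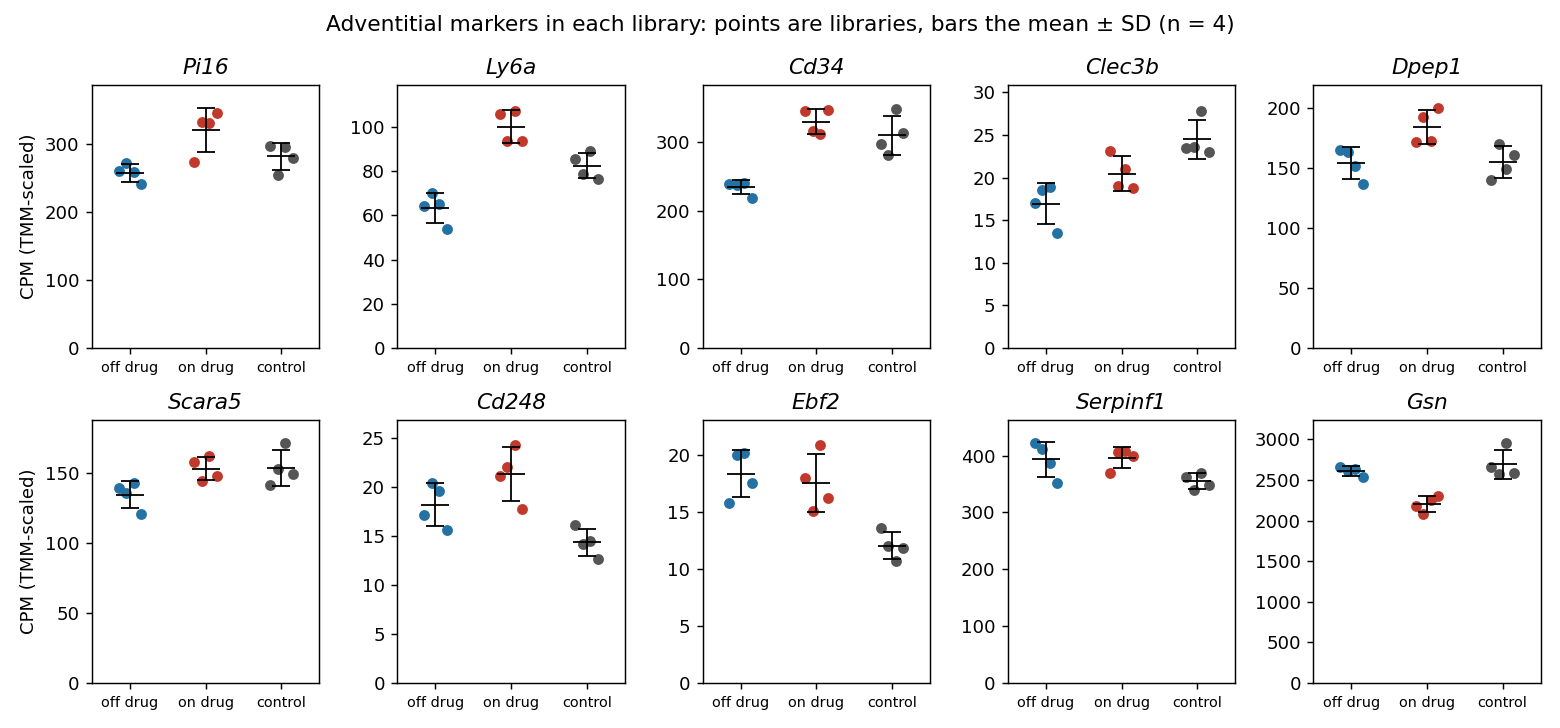
CPM (counts scaled to library size with TMM factors, axes from 0) of each marker in the 4 off-drug, 4 on-drug and 4 control libraries. Points are libraries and bars the mean ± SD. On-drug Gsn (2084 to 2301 CPM) lies below both other groups, off-drug Cd34 (219 to 239.8 CPM) below both other groups, and control Ebf2 (10.7 to 13.6 CPM) below both treated groups.

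The second comparison set the aorta 1 week after withdrawal against untreated aorta. Clec3b, Cd34 and Ly6a were lower than in controls, and Ebf2 and Cd248 were higher. That made 2 called up and 3 called down of the 10 markers, where 12% of all genes were called (6.27% up and 5.77% down). Among genes of at least 1 CPM in 4 libraries, 3271 of 17255 were called, and the markers kept 2 up and 3 down. By library, 1 marker lay wholly above and 3 wholly below the controls, where 9.2% and 7.73% of all genes did. The median of the 10 was -0.09 and that over all genes -0.0077, and without composition factors they were -0.030 and 0.050. Among all genes 52.1% of calls were up with TMM factors and 68.9% without them, while the markers kept 2 up and 3 down. Both this and the first comparison use the same 4 control libraries.

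Clec3b (ENSMUSG00000025784.5, chromosome 9, 123150946 to 123157432, plus strand) encodes tetranectin, a secreted plasminogen-binding protein. It measured 16.97, 18.5, 18.8 and 13.5 CPM in off-drug aortas, 23.1, 19.02, 21.01 and 18.7 CPM in on-drug aortas and 23.5, 23.6, 27.9 and 23.1 CPM in control aortas. The off-drug libraries lay below every control and overlapped the on-drug libraries. The log2 fold change was -0.53 ± 0.10 (adjusted p = 0.00215), or 0.69 of the control level. Leaving out any 1 of the 12 libraries kept it between -0.59 and -0.44, and without off-drug replicate 4, the lowest library, the adjusted p was 0.00713.

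Cd34 (ENSMUSG00000016494.9, chromosome 1, 194938819 to 194961279, plus strand) encodes a sialomucin of adventitial fibroblasts, endothelium and blood-forming progenitors. Its values were 239, 238, 239.8 and 219 CPM in off-drug aortas, 345, 316, 312 and 346 CPM in on-drug aortas and 297, 281, 347 and 314 CPM in control aortas. The off-drug libraries lay below all 8 others, and the on-drug and control libraries overlapped. The log2 fold change against controls was -0.40 ± 0.07 (adjusted p = 0.000643). The exons of Cd34 share 148 bases with the antisense gene Gm16897, whose counts amounted to 14.9% of those of Cd34 and which also fell (log2 fold change -0.37, adjusted p = 0.00105).

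Ly6a fell with them, at -0.38 ± 0.08 (adjusted p = 0.00341), which was 0.77 of the control level. All 3 decreases were called in all 20 alternative settings. Endothelial cells transcribe Cd34 and Ly6a too, and the endothelial list of 10 genes had 0 up and 2 down with a median of -0.06, which became 0.0013 without composition factors, 0.030 without off-drug replicate 2 and 0.029 without control replicate 1. Pecam1, the endothelial adhesion molecule, averaged 374 ± 43.5 CPM off drug and 365 ± 31.2 CPM in controls (SD, n = 4 each). Tek, the angiopoietin receptor, was among those that fell (-0.38 ± 0.08, adjusted p = 0.00421), as was Egfl7, a secreted endothelial factor (-0.37 ± 0.09, adjusted p = 0.0140). Of all genes tested, 6.27% were called up and 5.77% down in this comparison. The part of endothelial cells in the fall of Cd34 and Ly6a was not tested.

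Ebf2 was also higher off drug, at 0.61 ± 0.11 over controls (adjusted p = 0.000928), a 1.53-fold level, and was called in all 20 alternative settings. Its antisense partner Gm10860 was not called here either (log2 fold change 0.50, adjusted p = 0.166). Cd248 was higher by 0.34 ± 0.10 (adjusted p = 0.0385), but the groups overlapped and the call was lost in 8 of 20 settings. They were limma-voom (0.0557) and the fits without off-drug replicates 1 (0.0584), 2 (0.122) or 3 (0.113), on-drug replicate 2 (0.0529), or control replicates 2 (0.0864), 3 (0.0814) or 4 (0.118).

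The other 5 markers did not pass off drug. Scara5 read 120.3 to 142 CPM off drug, 144 to 162 CPM on drug and 141 to 171 CPM in controls, with a log2 fold change against controls of -0.19 ± 0.07 (adjusted p = 0.0786), and it passed without control replicate 1 (0.0372). Serpinf1 read 352 to 423 CPM off drug, 369 to 409 CPM on drug and 339 to 369.8 CPM in controls, with 0.15 ± 0.06 (adjusted p = 0.143). Pi16 read 241 to 273 CPM off drug, 274 to 345 CPM on drug and 255 to 298 CPM in controls, with -0.13 ± 0.07 (adjusted p = 0.283). These 3 genes had off-drug values that overlapped the controls. Dpep1 (-0.0089 ± 0.08, adjusted p = 0.960) and Gsn (-0.05 ± 0.06, adjusted p = 0.694) had differences smaller than their SE.

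The third comparison set the withdrawn aorta against the end of treatment. Ly6a, Cd34, Pi16 and Dpep1 were lower off drug and Gsn was higher. With 1 called up and 4 down of 10, the markers stood against 12.4% of all genes called (5.44% up and 6.92% down), and their median was -0.24 against -0.0011 over all genes. Without off-drug replicate 4 the markers had 1 up and 3 down, with a median of -0.16. All genes then had 1101 up and 1325 down of 24922 tested. Among genes of at least 1 CPM in 4 libraries, 3208 of 17255 were called, and the markers kept 1 up and 4 down. This comparison shares its on-drug libraries with the first and its off-drug libraries with the second.

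Ly6a had the largest difference of the 10, a log2 fold change of -0.66 ± 0.08 (adjusted p = 1.5e-05), so that off-drug aortas had 0.63 of the on-drug level. Cd34 differed by -0.49 ± 0.07 (adjusted p = 6.8e-05). Pi16 (ENSMUSG00000024011.16, chromosome 17, 29318877 to 29329413, plus strand), a secreted protein whose transcript marks the shared progenitor state of mouse fibroblasts, had 260.3, 273, 259 and 241 CPM in off-drug aortas, 274, 333, 331 and 345 CPM in on-drug aortas and 298, 255, 296 and 279.9 CPM in control aortas. Every off-drug value of Pi16 was below every on-drug value, and its controls overlapped both. The difference was -0.31 ± 0.07 (adjusted p = 0.00733), and the adjusted p was 0.0393 without off-drug replicate 4.

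Genes of other lists passed in the same comparison, where 5.44% of all genes were called up and 6.92% down. The endothelial list had 1 of 10 up and 4 down with a median of -0.35, and its summed level was 705 to 899 CPM off drug, 949 to 1087 CPM on drug and 770.3 to 871 CPM in controls. The 1 gene up was not called without off-drug replicates 2, 3 or 4 or on-drug replicates 2 or 3, nor without composition factors. Lymphatic endothelial markers had 0 of 6 up and 3 down (median -0.90), and macrophage markers 0 of 8 up and 5 down (median -0.30). General fibroblast genes had 2 of 26 up and 7 down (median -0.07), and 4 down without off-drug replicates 3 or 4 or on-drug replicates 2 or 3. The list named for blood-forming progenitors (Ptprc, Kit, Gata2, Spi1 and Gfi1b) had 0 of 5 up and 2 down, Gata2 and Spi1. Smooth muscle markers had 1 of 10 up and 2 down (median -0.10), preadipocyte genes 0 of 15 up and 2 down, and mast cell markers 0 of 7 up and 1 down. Skeletal muscle and mesothelial markers each had 1 of 7 tested up and 0 down. The part of these cells in the differences of the markers was not tested.

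Dpep1 (ENSMUSG00000019278.5, chromosome 8, 123186242 to 123201812, plus strand) had a log2 fold change of -0.26 ± 0.08 (adjusted p = 0.0326), with no overlap between the groups. That call was lost without off-drug replicates 3 (0.0915) or 4 (0.128), without on-drug replicates 2 (0.109) or 4 (0.108), and without composition factors (0.0635). Gsn was higher off drug by 0.24 ± 0.06 (adjusted p = 0.0106) and missed without on-drug replicate 2 (0.0530), the lowest library of its group. Without that library 0 markers were up and 3 down. Calls over all genes fell too, to 965 up and 1289 down of 25789 tested, from 1341 up and 1706 down of 24660.

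Scara5 (ENSMUSG00000022032.14, chromosome 14, 65666403 to 65764826, plus strand) had no overlap between off-drug and on-drug libraries but did not pass, at -0.19 ± 0.07 (adjusted p = 0.0901). Clec3b had -0.27 ± 0.10 (adjusted p = 0.0902), and it passed with no filter (0.0301). Cd248 had -0.23 ± 0.10 (adjusted p = 0.175) and Ebf2 0.07 ± 0.11 (adjusted p = 0.755). Serpinf1 (ENSMUSG00000000753.15, chromosome 11, 75409769 to 75422701, minus strand) had -0.01 ± 0.06 (adjusted p = 0.950), and in all 3 comparisons it was not called. Of the 10 genes, 5 had off-drug values wholly below and 1 wholly above the on-drug values, where 9.37% and 9.44% of all genes did.

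**Figure D2:**
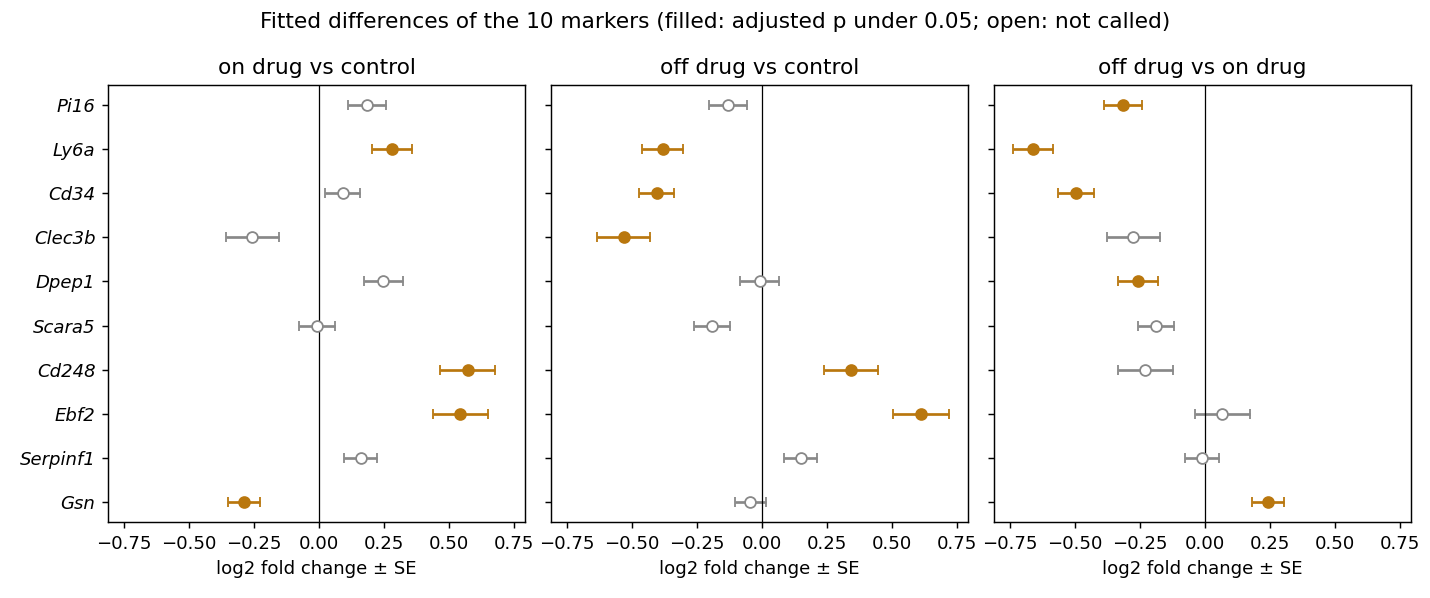
Log2 fold change ± SE of each marker (rows) in the 3 comparisons (panels), from 1 edgeR model of 12 libraries. Filled points passed an adjusted p of 0.05 and open points did not. Ebf2 is on the positive side against controls in both treated groups (0.54 on drug and 0.61 off drug), whereas Ly6a changes side, with 0.28 on drug and -0.38 off drug.

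Ratios between 2 markers of the same library do not depend on how libraries are scaled. The 4 ratios given here were chosen after the values were seen and carry no test. Cd248 over Clec3b, per kilobase, was 0.391, 0.428, 0.403 and 0.450 in off-drug libraries, 0.355, 0.450, 0.449 and 0.368 in on-drug libraries and 0.266, 0.233, 0.202 and 0.213 in controls. Both treated groups lay above all controls, by 1.83 times off drug and 1.78 times on drug in the means. Ebf2 over Cd34 was 0.0694, 0.0883, 0.0882 and 0.0841 off drug, 0.0547, 0.0503, 0.0704 and 0.0492 on drug and 0.0482, 0.0449, 0.0325 and 0.0395 in controls. Here the treated groups again lay above the controls, and 1 off-drug library fell below the highest on-drug library.

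Gsn over Serpinf1 was 4.71, 4.74, 5.10 and 5.37 off drug, 4.42, 3.83, 4.13 and 4.31 on drug and 5.49, 5.68, 5.98 and 5.55 in controls, so the 3 groups did not overlap and the off-drug libraries lay between the other groups. Ly6a over Serpinf1 was 0.298, 0.333, 0.330 and 0.299 off drug, 0.560, 0.451, 0.514 and 0.459 on drug and 0.462, 0.456, 0.471 and 0.431 in controls. The off-drug libraries lay below all others for this ratio, while on-drug and control libraries overlapped.

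**Figure D3:**
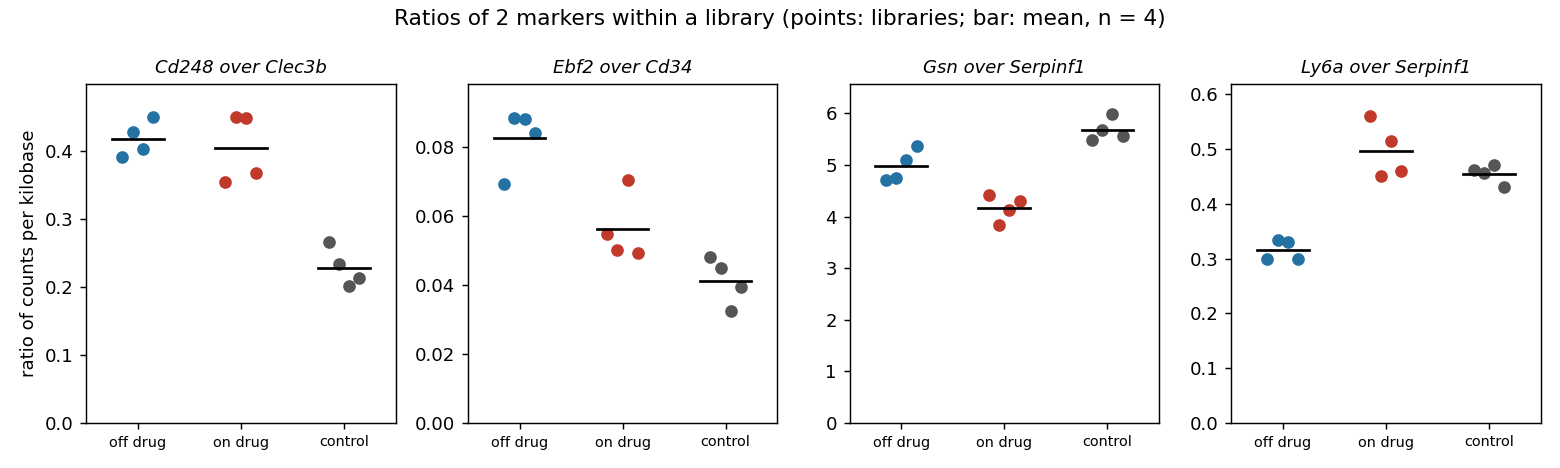
Ratio of counts per kilobase of 2 markers within each library (axes from 0), by group, with points for libraries and a bar for the mean of 4. Cd248 over Clec3b averages 0.418 off drug and 0.406 on drug against 0.228 in controls, and Gsn over Serpinf1 averages 4.98 off drug and 4.17 on drug against 5.68 in controls.

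A list of 25 other genes reported in adventitial and progenitor fibroblasts was followed beside the markers. It was chosen with earlier results of these data known, so its counts and medians describe these libraries and lend the markers no support. Of all genes tested, 7.07% were called on drug, 12% off drug and 12.4% off drug against on drug. On drug 9 of the 25 were called up and 0 down, the median being 0.29 on the log2 scale. The count up was 4 without on-drug replicate 3 and 5 without control replicate 2. Off drug 2 were up and 8 down against controls, with a median of -0.32, and 1 was up without off-drug replicates 2 or 3 or control replicates 1, 2 or 3. Between off-drug and on-drug aortas 0 were up and 15 down, with a median of -0.53, and without off-drug replicate 4 these were 0 and 13. The summed level of the list was 1972 to 2208 CPM off drug, 2901 to 3009.6 CPM on drug and 2376 to 2748 CPM in controls, ranges that did not overlap. The sum is weighted to abundant genes and is not read as a change of the whole list. The 10 markers summed to 3702 to 4004 CPM off drug, 3626 to 3886 CPM on drug and 3900 to 4436 CPM in controls. On drug their sum thus lay below the controls, and it is weighted to Gsn.

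Heg1, a transmembrane mucin-like receptor, averaged 163 ± 3.26 CPM off drug, 337 ± 18.1 CPM on drug and 219 ± 25.7 CPM in controls (SD, n = 4 each). It was called up on drug (0.62 ± 0.07, adjusted p = 7.2e-05) and down off drug (-0.43 ± 0.07, adjusted p = 0.000682). Smpd3, a neutral sphingomyelinase, was up on drug (0.89 ± 0.12, adjusted p = 0.000253), and off drug it had 0.10 ± 0.12 (adjusted p = 0.662). Heg1 thus had the order of Ly6a, highest on drug and lowest off drug. The part of endothelial cells in the differences of Heg1 and of the other genes of this list was not tested. Limch1, an activator of non-muscle myosin, and Gfpt2, an entry enzyme of hexosamine synthesis, were down off drug, at -0.92 ± 0.09 (adjusted p = 3.3e-06) and -0.71 ± 0.08 (adjusted p = 6.5e-06). Neither passed on drug (-0.06 ± 0.09 and 0.015 ± 0.08). Uchl1, a deubiquitinating enzyme, was up in both treated groups, at 0.46 ± 0.05 off drug and 0.46 ± 0.05 on drug (adjusted p = 2.0e-05 and 8.2e-05), as Ebf2 was. Ly6c1, a paralog of Ly6a named here after its values were seen, was down off drug (-0.37 ± 0.08, adjusted p = 0.00319) and had 0.25 ± 0.08 on drug (adjusted p = 0.0535).

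Broader fibroblast genes were read beside them, where 12% of all genes were called off drug and 7.07% on drug. Of 26, 6 were up and 3 down off drug (median 0.12), and 10 up and 1 down on drug (median 0.05). The off-drug count up was 3 without off-drug replicate 3 or control replicates 3 or 4, and its median 0.059 without off-drug replicate 2, 0.076 without control replicate 1 and 0.079 without control replicate 4. The on-drug count up was 6 without control replicate 2 or on-drug replicate 2 and 5 when on-drug replicate 3 was left out, and its median ran from 0.0077 without control replicate 4 to 0.12 without control replicate 3. Their summed level was 11894 to 12668 CPM off drug, 12131 to 12556 CPM on drug and 10942 to 11665 CPM in controls, with both treated groups above the controls. Vim alone averaged 5061 ± 331 CPM off drug, 4586 ± 204 CPM on drug and 3924 ± 158 CPM in controls (SD, n = 4 each). Lrp1 averaged 1558 ± 35.9, 1819 ± 104 and 1393 ± 127 CPM in that order. The sum is weighted to abundant genes such as these and is not read as a rise of the whole list. Pdgfra, the receptor used to define fibroblasts, averaged 131 ± 5.52 CPM off drug, 153 ± 9.92 CPM on drug and 140.3 ± 17.4 CPM in controls, and passed in neither comparison with controls (adjusted p = 0.461 off drug and 0.366 on drug). Cygb, the globin of fibroblasts, was up off drug (0.45 ± 0.08, adjusted p = 0.000626) and on drug (0.50 ± 0.08, adjusted p = 0.000866). The filament protein Vim was up off drug by 0.37 ± 0.06 (adjusted p = 0.000643). Twist2, a repressor of mesenchymal differentiation, was down off drug (-0.65 ± 0.11, adjusted p = 0.000485). On drug, the surface protein Thy1 (0.66 ± 0.09, adjusted p = 0.000460) and the endocytic receptor Lrp1 (0.39 ± 0.07, adjusted p = 0.00250) were up. No test compared this list with the progenitor list.

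Because Ebf2 also acts in fat precursors, genes of that lineage were read beside it. Of 15 preadipocyte genes 0 were up and 2 down off drug, and 1 up and 1 down on drug. With 12% of all genes called off drug and 7.07% on drug, these few calls are not read as a result about the lineage. Cebpb, an early adipogenic factor, was down off drug (-0.66 ± 0.11, adjusted p = 0.00104) and on drug (-0.42 ± 0.11, adjusted p = 0.0299). Zfp521, a repressor of fat cell commitment, was up on drug (0.43 ± 0.08, adjusted p = 0.00470), and the adhesion molecule Icam1 was down off drug (-0.29 ± 0.09, adjusted p = 0.0322). Of 15 adipocyte markers 0 were called in any comparison in the edgeR model of all 12 libraries. Off drug against on drug, edgeR called 1 down with no filter on low counts and 1 down without on-drug replicate 3. At an unadjusted p below 0.05 there were 0 off drug and 1 on drug against controls, and 2 off drug against on drug, and DESeq2 called 0, 0 and 1 in the same comparisons. Their summed level was 1409 to 1906 CPM off drug, 1791 to 2403 CPM on drug and 1501 to 2102 CPM in controls, overlapping ranges. Adipoq, the adipocyte hormone, averaged 20.2 ± 17.6 CPM off drug, 37.01 ± 10.4 CPM on drug and 34.00 ± 18.7 CPM in controls. Plin1, the lipid droplet coat protein, averaged 15.7 ± 12.97 CPM off drug, 23.4 ± 6.45 CPM on drug and 21.3 ± 10.7 CPM in controls.

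Markers of the remaining cell types were counted against controls in the same way, where 12% of all genes were called off drug and 7.07% on drug. Smooth muscle markers had 4 up and 0 down off drug and 3 up and 0 down on drug of 10. Among the on-drug rises was Myh11, the smooth muscle myosin (0.32 ± 0.07, adjusted p = 0.00788), and among the off-drug rises Smtn (0.55 ± 0.09, adjusted p = 0.000743). Endothelial markers had 2 of 10 up on drug, Vwf (0.58 ± 0.07) and Cdh5 (0.45 ± 0.10), with adjusted p of 0.000142 and 0.0137, and 1 up without on-drug replicate 3 or control replicate 3. Lymphatic endothelial markers had 0 up and 0 down off drug and 3 up and 0 down on drug of 6, macrophage markers 0 up and 3 down off drug and 3 up and 0 down on drug of 8, and mast cell markers 0 up and 0 down off drug and 2 up and 0 down on drug of 7. The list named for blood-forming progenitors, which also carry CD34, had 0 up and 0 down off drug and 2 up and 0 down on drug of 5. Those up were Gata2 and Spi1, while Gfi1b had -0.07 on drug (adjusted p = 0.974). Kit is in both this list and the mast cell list, so this list does not read progenitors alone. Skeletal muscle markers had 1 up and 0 down off drug and 2 up and 0 down on drug of 7 tested, although their summed level stayed between 4.84 and 17.9 CPM. Mesothelial (7 tested) and Schwann cell markers (6 tested) had 0 called against controls in edgeR. Unadjusted p was below 0.05 for 2 mesothelial genes off drug and 1 on drug, and for 0 Schwann cell genes off drug and 2 on drug, and DESeq2 called 1 mesothelial gene off drug and 2 Schwann cell genes on drug. The lists with 0 called off drug had 1 lymphatic, 1 mast cell and 0 progenitor genes at that unadjusted level off drug, and 0 in DESeq2. The mesothelial genes Msln and Upk3b averaged below 1 CPM in every group. What part any of these cells had in the differences of the 10 markers was not tested.

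**Figure D4:**
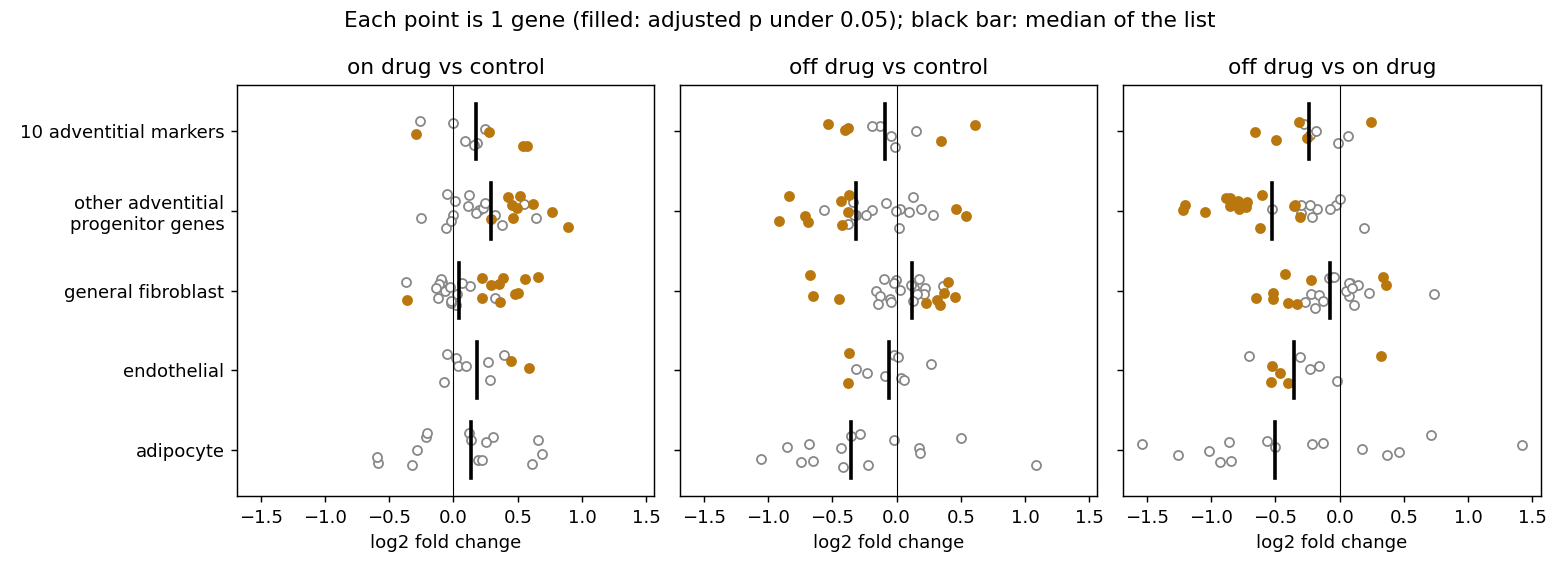
Log2 fold changes of the genes of 5 lists (rows) in the 3 comparisons (panels). Each point is a gene, filled where its adjusted p was below 0.05, and the black bar is the median of the list. The lists were chosen with earlier results of these data known. The other adventitial progenitor genes have medians of 0.29 on drug, -0.32 off drug and -0.53 between off-drug and on-drug aortas, and the 10 markers 0.17, -0.09 and -0.24.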

How the data were processed

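RNA from 12 mouse aortas was sequenced with standard Illumina libraries, per the labels' protocols. The per-sample files deposited by the authors hold raw read counts, 1 whole number for each gene. Per the file headers they came from featureCounts 1.4.6-p3 with annotation of GENCODE mouse release M13 and a STAR 2.5.3a index. The submitters' processing notes give GRCm38. The recorded options counted multi-mapping reads and reads over several genes at each of them, without strand, so paralogs and overlapping or antisense genes share reads. A table of the whole series deposited by the authors holds log2 normalized counts; it supplied symbols and coordinates, and its log2 values for the 10 markers were checked against the counts in each library (Pearson's r rounded to 1.000 in every library, across markers, which are not replicates).

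Counts were fitted in R 4.3.3 with edgeR 4.0.16: filterByExpr (minimum count 10, total 15), TMM factors, and 1 robust quasi-likelihood model with 3 groups over 12 libraries, tested two-sided. SEs were derived from the F statistic. The scripts were tested on simulated data for on drug against controls, with 50 genes changed at each size. Of 1.25-fold changes 24% were recovered, of 1.5-fold 62% and of 2-fold 96%, and 12 unchanged genes were called. The changed genes were drawn at random from those averaging 1 or more in log2 CPM. Fewer genes were changed than the 1743 called on drug, so these shares do not give the sensitivity for the markers. A marker that did not pass may still differ by a small fold. The alternatives were DESeq2 1.42.0, limma 3.58.1 (voom with quality weights), other scalings and filters, 2 groups alone, a replicate block and each library left out; all alternatives for the gene lists other than the 10 markers were added after seeing the data. No 2 libraries of a group agreed within sampling noise.

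Members and lists were chosen with earlier results of these data known. The rule for named genes took all 10 markers, from each other list up to 3 called genes of smallest adjusted p in each comparison with controls, the first 2 genes of each list of another cell type, and the 5 genes most like the markers. Of the genes of other cell types, those bearing on a marker are printed.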

Additional observations from a re-analysis of the deposited data

Results flagged for a closer look

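Of 30 marker and group combinations, 2 held a library farther from the other 3 of its group than Dixon's 95% value for 4 samples (0.829) allows, where chance flags about 5%. Cd34 in off-drug replicate 4 was at 219 CPM, against 238 to 239.8 CPM in the other off-drug libraries. Without that library the off-drug difference of Cd34 from controls was still called (adjusted p = 0.00442 in edgeR). Clec3b in control replicate 3 was at 27.9 CPM, against 23.1 to 23.6 CPM in the other controls. Without it the off-drug difference of Clec3b was still called (adjusted p = 0.0103 in edgeR).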

How the results depend on the processing

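Under 20 alternative settings, 12 of which left out 1 library, 555 of 600 values of single markers kept their direction and side of the threshold, 21 lost a call, 9 gained one and 15 reversed. The reversed values were all small and uncalled. Without composition factors they were 0.030 for Scara5 on drug, 0.049 for Dpep1 and 0.012 for Gsn off drug, and 0.011 for Serpinf1 off drug against on drug. With single libraries left out these log2 fold changes ran from -0.052 to 0.044, from -0.058 to 0.046, from -0.074 to 0.0011 and from -0.043 to 0.047. Markers called then numbered 3 to 5 on drug, 4 to 6 off drug, and 3 to 5 off drug against on drug. In the last comparison the median ran from -0.29 to -0.16, the smaller size without off-drug replicate 4. All genes called in those fits numbered 803 to 2290, 1989 to 3553 and 2254 to 3252 in the same order. Same-numbered libraries' deviations from their group means, over all genes, correlated between -0.0797 and 0.0672. No other pairs were set beside them, and shared handling that moved few genes would not show. Whether equal numbers mark shared handling is therefore not settled by these values. With replicate number as a block, 4, 5 and 6 markers were called in the order of the comparisons, in place of 4, 5 and 5. Clec3b was added off drug against on drug (adjusted p = 0.0492 in edgeR). All genes called with the block numbered 1558, 2791 and 3047, in place of 1743, 2967 and 3047. Counts over all genes moved more. On drug, 1743 genes were called, 2740 in DESeq2, 1147 with the 2 groups alone and 803 to 2290 with a library left out, the low counts coming without on-drug replicate 3 (803) or 4 (918) or control replicate 3 (906). The cause of these shifts was not tested. The lowest count of a marker in any library was 614, and no alternative varied the depth.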

Other observations

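The standardised log2 CPM of the 10 markers was averaged in each library, and genes outside the set were ranked by Pearson's r to that mean over the 12 libraries, as a description. The 5 nearest, among genes averaging 1 or more in log2 CPM, were Pon2 (r = 0.931), Syk (r = 0.911), Abcc3 (r = 0.910), Emilin2 (r = 0.901) and Clic1 (r = 0.893). They were picked as the highest of all such genes, share the 12 libraries and their scaling with the markers, and the low value of off-drug replicate 4 (-1.18 on the standardised scale, against -0.238 to -0.0142 in the other off-drug libraries) enters all of them. On-drug libraries had means of 0.362 to 0.774 and controls of -0.313 to 0.321.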
